A study of Homo sapiens with 6 samples.

Results

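Chromosome 6 held 4807 of the 78446 active regulatory elements that were called on chromosomes 1 to 22 and X in 3 peak lists. All came from K562, a human leukaemia line that is long established in culture. Its members were chosen by position alone: every peak listed on chromosome 6. The chromosome itself was singled out because, in each list, a smaller share of its peaks lay close to an annotated transcript start than on any other chromosome. That share chose the chromosome, so it is described here and carries no test. The account asks which 1 Mb bins of the chromosome hold the surplus of peaks away from starts, and what lies in them.

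The lists came from run-on sequencing, in which engaged RNA polymerases add a biotin-labelled nucleotide to nascent RNA that is then captured and sequenced. Untreated K562 cells were used throughout, and the 6 libraries formed 3 groups of 2 biological replicates: PRO-seq 1M, made by the published protocol from 1M cells, qPRO-seq 1M, made by a shortened protocol from the same number, and qPRO-seq 250k, made by the shortened protocol from 250k. Values that stand together as 3 are in that order. The libraries had 11, 11 and 14 PCR cycles, so cell number and cycle number cannot be told apart in qPRO-seq 250k. dREG, a classifier that finds promoters and enhancers from run-on reads on both strands, gave 1 list per group, with 24707, 38177 and 15562 peaks. A single list per group leaves no replicate spread, so groups were compared without a test. Depth is unknown because the lists carry no read counts, and list length and depth cannot be told apart. The labels call K562 a lymphoblastoid line. Of 7 erythroid marker genes, 6, 7 and 6 had a peak at a start, against 2, 2 and 1 of 7 lymphoid markers.

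A transcribed promoter or enhancer usually starts polymerases in both directions, and dREG looks for that pattern. Protein-coding genes are transcribed by RNA polymerase II, whereas tRNA genes are transcribed by RNA polymerase III from promoter elements inside the gene, called the A box and the B box. The short arm of chromosome 6 carries the largest human cluster of replication-dependent histone genes, which supply histones for packaging new DNA in S phase, interspersed with a large cluster of tRNA genes. Next to it lies the major histocompatibility complex (MHC), which encodes the HLA proteins that present peptides to T cells.

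The following tRNA genes are shown because many distal peaks of the chromosome lay beside such genes, and because 2 of them had peaks and 1 did not. The sequences are from RefSeq on GRCh38.p14, read 5′ to 3′ on the strand that holds the letters GTTCGA, which are in capitals and form the core of the usual B box. The letters were chosen after the sequences were seen.
TRI-TAT2-2: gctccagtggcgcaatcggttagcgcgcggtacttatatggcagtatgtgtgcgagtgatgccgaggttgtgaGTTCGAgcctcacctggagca
TRI-AAT8-1: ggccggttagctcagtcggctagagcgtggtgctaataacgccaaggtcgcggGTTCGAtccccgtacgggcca
TRL-AAG2-2: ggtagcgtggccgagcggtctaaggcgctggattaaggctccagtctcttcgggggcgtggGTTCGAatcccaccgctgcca
TRI-TAT2-2, an isoleucine tRNA gene at chr6:27020346-27020439, lay under peaks of score percentile 96.0, 98.5 and 98.0 within their lists. These peaks counted as start-near, because a GENCODE start lies 61 bp from the midpoint of the gene, where RefSeq names the long non-coding RNA LARRPM. TRI-AAT8-1, also an isoleucine tRNA gene, at chr6:27668583-27668656, lay under distal peaks of score percentile 76.4, 44.8 and 49.4. TRL-AAG2-2, a leucine tRNA gene at chr6:28943622-28943703, had no peak within 500 bp in any list. TRL-AAG2-2 lies in a stretch of 4.95 Mb, described below, where no tRNA gene had a peak. All 3 genes were chosen to hold the core letters, so nothing about the letters and peaks can be read from them.

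Chromosome 6 had 1451, 2358 and 998 peaks. A peak was called start-near when a transcript start of any GENCODE gene lay within 500 bp of it, and distal otherwise. In PRO-seq 1M, 822 of its peaks were start-near (56.7%; Wilson 95% interval 54.1 to 59.2), against 68.8% on the other 22 chromosomes and 68.1% over all. In qPRO-seq 1M, 1022 were start-near (43.3%; 41.4 to 45.4), against 54.9% on the others and 54.2% over all. In qPRO-seq 250k, 623 were start-near (62.4%; 59.4 to 65.4), against 74.3% and 73.5%. The difference was -12.1, -11.5 and -11.8 percentage points, and chromosome 6 was the lowest of 23 chromosomes in each list. The chromosome next above it was 10 at 63.0% in PRO-seq 1M, 21 at 46.0% in qPRO-seq 1M and 10 at 68.8% in qPRO-seq 250k. Near the limit, 36, 65 and 23 peaks lay in the last 100 bp inside it, and 24, 46 and 16 lay in the first 100 bp beyond it.

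**Figure D1:**
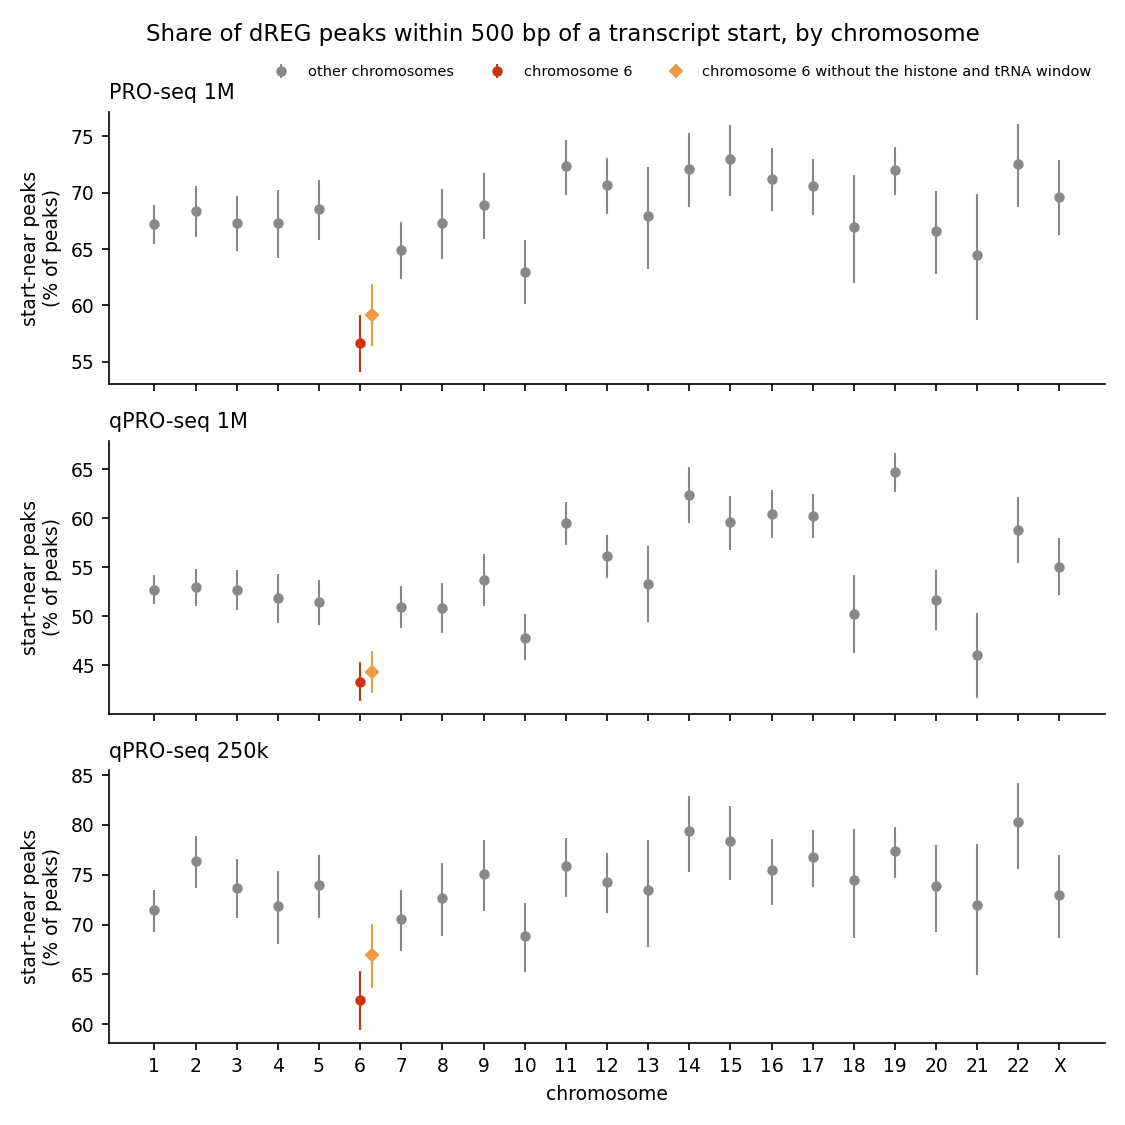
Start-near share of dREG peaks, those with a start at most 500 bp away (percent of peaks, vertical axis, not starting at 0) for each chromosome (horizontal axis), with 1 panel per list; bars are Wilson 95% intervals of the counts. Chromosome 6 (red) was lowest in all 3 panels at 56.7%, 43.3% and 62.4%, and remained lowest without the histone and tRNA window (orange diamonds) at 59.2%, 44.3% and 66.9%.

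The shortfall can be written as a number of peaks. At the distal share of the other chromosomes, chromosome 6 would have had 453, 1064 and 257 distal peaks, and it had 629, 1336 and 375. The distal excess was therefore 176, 272 and 118 peaks. Each 1 Mb bin was given its own excess in the same way, as its distal peaks less the number that the other chromosomes' share would give it. A bin without peaks has an excess of 0 by this measure. Start-near peaks that are missing from a gene-rich stretch, such as the MHC described below, therefore do not show in it. Peaks fell in 143, 151 and 136 of the 171 bins, with a median of 6, 11 and 5 peaks in a bin that had any.

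The window chr6:25500000-28700000, with the histone and tRNA genes, held 214, 317 and 185 peaks, of which 42.1%, 37.2% and 42.7% were start-near. Its distal excess was 57.2, 55.9 and 58.4 peaks, close to the same number in each list. Because the totals differ, this made up 32.5%, 20.6% and 49.4% of the chromosome's excess. Without the window the start-near share was 59.2%, 44.3% and 66.9%. The difference from the other chromosomes was then -9.62 points in PRO-seq 1M (Newcombe 95% interval -12.5 to -6.85), -10.6 points in qPRO-seq 1M (-12.8 to -8.35) and -7.34 points in qPRO-seq 250k (-10.7 to -4.11). Chromosome 6 was still the lowest of 23 in each list. The window thus held the largest single block of the surplus, and most of the surplus in both 1M lists lay elsewhere.

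Within the window the bin from 27 to 28 Mb ranked first of all bins in every list. It had 108, 152 and 88 peaks, of which 29, 35 and 26 were start-near, and an excess of 45.3, 48.4 and 39.3. The neighbouring bin from 26 to 27 Mb had 67, 107 and 66 peaks with 33, 53 and 32 start-near, and an excess of 13.1, 5.71 and 17.0. The densest 100 kb of distal peaks in the 27 to 28 Mb bin began at 27.6 Mb in PRO-seq 1M, with 17 peaks, and at 27.6 Mb in qPRO-seq 1M, with 27. In qPRO-seq 250k it began at 27.5 Mb, with 13.

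RefSeq places 155 tRNA genes on chromosome 6, which is 34.99% of the 443 on the chromosomes compared, and 113 of them lie in the window. Of the 155, 10 had their midpoint within 500 bp of a GENCODE start, so peaks at the others usually count as distal. Distal peaks of chromosome 6 lay within 500 bp of a tRNA gene in 85 of 629 cases in PRO-seq 1M (13.5%; 11.1 to 16.4), in 120 of 1336 in qPRO-seq 1M (8.98%; 7.56 to 10.6) and in 77 of 375 in qPRO-seq 250k (20.5%; 16.8 to 24.9). Over all chromosomes the shares were 2.98%, 1.84% and 4.65%, and on the other 22 they were 2.07%, 1.25% and 3.07%. Inside the window 80 of 124, 114 of 199 and 74 of 106 distal peaks lay near a tRNA gene, or 64.5%, 57.3% and 69.8%. Bases that close to a tRNA gene made up 3.67% of the window. A peak counted as near when any part of it lay that close, so the matching background for peaks is larger than 3.67%. In the bin from 27 to 28 Mb the counts were 56 of 79, 76 of 117 and 50 of 62.

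The centres of the window's distal peaks lay a median of 163.5 bp from the nearest tRNA gene in PRO-seq 1M, 415 bp in qPRO-seq 1M and 63 bp in qPRO-seq 250k. A centre fell inside the tRNA gene itself for 28, 26 and 15 peaks. At the other end, 24, 50 and 20 of the window's distal peaks were more than 5000 bp from any tRNA gene, so that tRNA genes were beside most and not all of them.

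**Figure D2:**
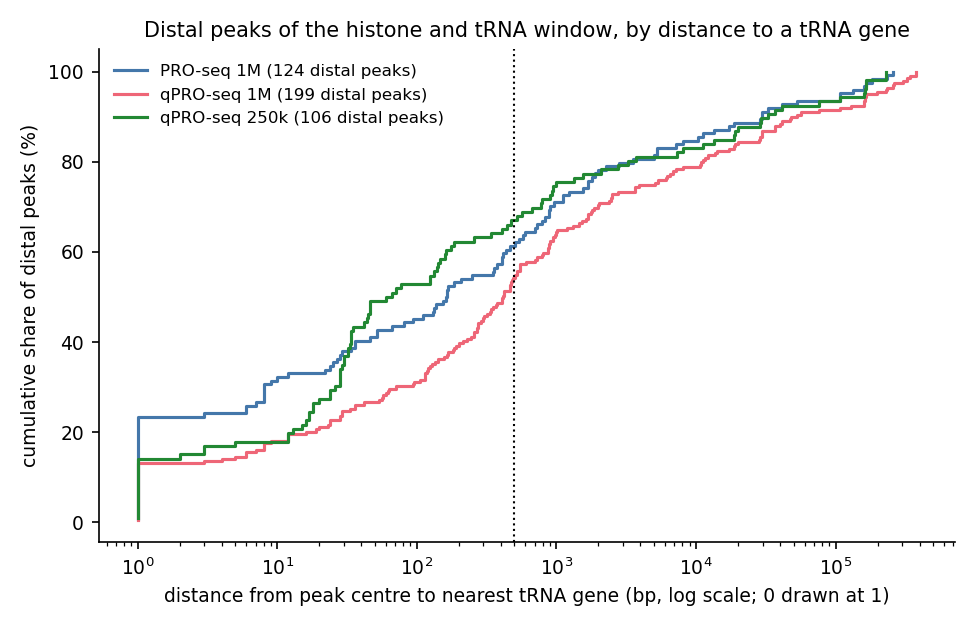
Cumulative share of the distal peaks in the histone and tRNA window (percent, vertical axis) by the distance from the peak's centre to the nearest tRNA gene (bp, log scale, with a distance of 0 drawn at 1), 1 line per list; the dotted line marks 500 bp. Most of each line's rise is complete by 5000 bp, with medians of 163.5, 415 and 63 bp.

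Counting tRNA genes as starts raised the start-near share of chromosome 6 to 62.5%, 48.4% and 70.1%, against 69.4%, 55.4% and 75.0% on the other chromosomes. The difference shrank to -6.94, -7.00 and -4.90 points. Chromosome 6 remained the lowest of 23 in PRO-seq 1M, and it became the third lowest in qPRO-seq 1M and the second lowest in qPRO-seq 250k. With tRNA genes so counted, leaving out the window lowered the share of chromosome 6, to 59.6%, 44.6% and 67.3%. The difference then widened to -9.86, -10.8 and -7.76 points, and chromosome 6 was the lowest of 23 in each list.

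A peak lay within 500 bp of 79, 86 and 74 of the 155 tRNA genes of chromosome 6 (51.0%, 55.5% and 47.7%), against 58.0%, 65.0% and 52.8% of all 443. The chromosome's share includes 35 genes of a stretch without peaks. Outside it, 65.8%, 71.7% and 61.7% of 120 genes had a peak, against 61.8%, 70.1% and 55.6% of the 288 on the other chromosomes. The same 70 genes had a peak in all 3 lists, and 67 had one in none. The 35 genes, between 28616431 and 33570810, were all among the 67, and of the 120 outside 70 had a peak in all lists and 32 in none.

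Among the tRNA genes outside that stretch, families differed in their counts. Serine tRNA genes (TRS) had a peak in all 3 lists for 14 of 17, tyrosine genes (TRY) for 4 of 4, aspartate genes (TRD) for 3 of 3, initiator methionine genes (TRX) for 5 of 6 and threonine genes (TRT) for 6 of 7. Elongator methionine genes (TRM) had one for 1 of 6. Alanine genes (TRA and TRNAA) had one for 2 of 17, and the other 15 had none in any list. Most of those 15, and most TRM genes, lie in a single run of tRNA genes, chr6:26673362-26828299. Within this run only TRM-CAT4-2 had a peak in all 3 lists, and the isoleucine genes there had none in any. Family and position therefore cannot be told apart for these genes. A family here is a symbol prefix, with TRA and TRNAA pooled, and methionine genes fall under TRX or TRM. A prefix can pool different anticodons, as the unlike sequences of TRI-TAT2-2 and TRI-AAT8-1 show. Some genes have near-identical copies, and how reads that match several copies were placed is not given in the sources used here, so the gene that a peak belongs to is uncertain within a dense cluster. The top-scored peak near a tRNA gene in qPRO-seq 1M was that at chr6:27553291-27553890 over TRS-AGA4-1, a serine tRNA gene, with a score at percentile 99.8. In PRO-seq 1M it was the peak at chr6:27631201-27631710 over TRI-TAT2-3, an isoleucine tRNA gene, also at percentile 99.8, which was the top-scored distal peak of the whole chromosome.

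Distal peaks near tRNA genes ranked above other distal peaks and were found again more often. Their median score percentile was 51.7, 59.9 and 58.6, against 35.7, 42.1 and 33.1 for the rest of the chromosome's distal peaks. Of the 85 in PRO-seq 1M, 83.5% (74.2 to 89.9) shared at least 1 bp with a qPRO-seq 250k peak, against 45.6% (41.4 to 49.8) of the other distal peaks. Of the 120 in qPRO-seq 1M, 82.5% (74.7 to 88.3) were overlapped by PRO-seq 1M, against 44.2% (41.4 to 47.0). These groups also differ in score, and the part of score in the overlap was not tested.

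Histone genes held 32 of the 90, 42 of the 118 and 34 of the 79 start-near peaks of the window. Of 55 replication-dependent histone genes, 34, 38 and 34 had a peak within 500 bp of a start (61.8%, 69.1% and 61.8%). Over all protein-coding genes the shares were 52.9%, 54.5% and 44.0%. A peak stood at 33 of the 55 in all lists and at 17 in none. By family, all 3 lists had a peak at 10 of 12 H2A genes, 11 of 15 H2B genes, 4 of 6 genes of the linker histone H1, 5 of 10 H3 genes and 3 of 12 H4 genes. Many H2A and H2B genes stand head to head and share 1 peak: the 34, 38 and 34 genes had 24, 28 and 24 distinct top peaks.

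Over all start-near peaks at histone genes, the median score percentile within the whole list was 79.5, 78.9 and 77.1, with lower quartiles of 47.7, 31.4 and 43.0. Over the top peak of each histone gene alone, with a shared peak counted once for each gene, the median was 94.7, 98.1 and 98.6, and the same measure was 89.9, 96.8 and 88.2 for the zinc-finger and SCAN genes described below. HIST1H4C, an H4 gene, had the top-scored start-near peak of chromosome 6 in PRO-seq 1M (chr6:26103681-26104680, score 1.47) and in qPRO-seq 250k (chr6:26103681-26104790, score 1.33), and its peak in qPRO-seq 1M was at percentile 99.8. The shared peak of HIST1H2AK and HIST1H2BN, at percentile 99.99 in qPRO-seq 250k, and that of HIST1H2AH and HIST1H2BK, at 99.96, followed there. At the other end, HIST1H4D had peaks at percentile 0.85 in PRO-seq 1M and 38.8 in qPRO-seq 1M and none in qPRO-seq 250k. HIST1H1A, which encodes an H1 subtype, had none in any list.

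**Figure D3:**
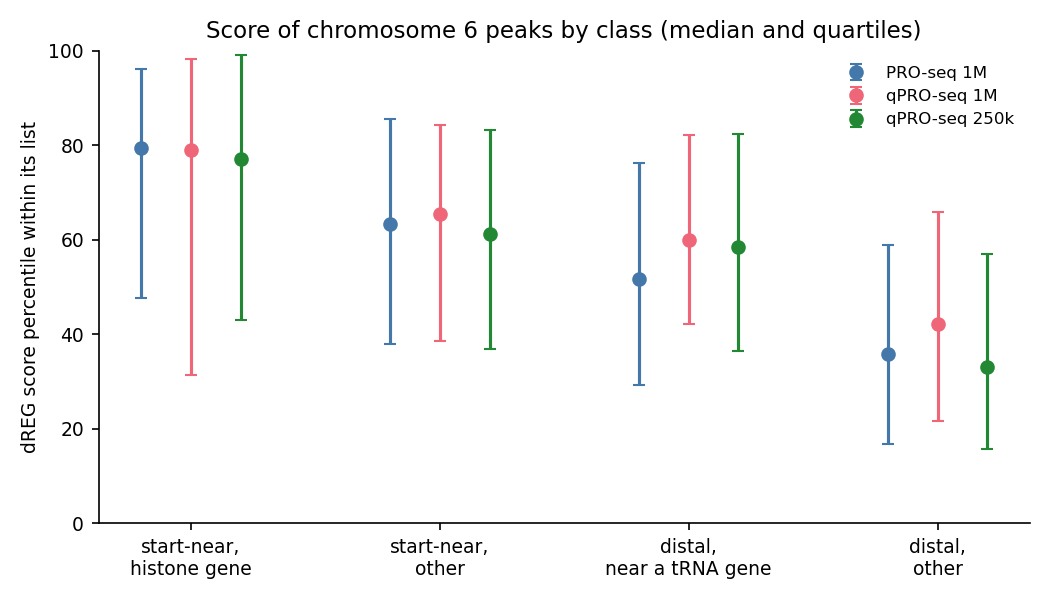
dREG score percentile within the whole list (vertical axis, 0 to 100) for 4 classes of chromosome 6 peaks, 1 colour per list; points are medians and bars span the quartiles over peaks. Medians fall from 79.5, 78.9 and 77.1 for start-near peaks at histone genes to 35.7, 42.1 and 33.1 for distal peaks away from tRNA genes, with wide overlap between classes.

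Promoters of histone genes are shown because most had peaks while their neighbours of the same family could lack one. Each line gives the 120 bases before the RefSeq start, 5′ to 3′ on the gene's strand, with TATAAA, the core of the TATA box, and CCAAT or its reverse complement ATTGG in capitals.
HIST1H2BK: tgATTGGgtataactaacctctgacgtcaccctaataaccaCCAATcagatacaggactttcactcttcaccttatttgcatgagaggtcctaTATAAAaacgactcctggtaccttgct
HIST1H1C: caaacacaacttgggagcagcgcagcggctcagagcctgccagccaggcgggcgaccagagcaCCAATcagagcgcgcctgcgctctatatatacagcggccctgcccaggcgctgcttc
HIST1H1A: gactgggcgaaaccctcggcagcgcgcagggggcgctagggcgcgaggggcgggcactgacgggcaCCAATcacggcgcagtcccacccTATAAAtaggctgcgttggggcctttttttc
MTFR2: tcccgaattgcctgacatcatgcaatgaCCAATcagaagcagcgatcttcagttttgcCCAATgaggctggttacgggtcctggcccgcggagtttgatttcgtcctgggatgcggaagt
HIST1H2BK (chr6:27146859-27146978, minus strand) and HIST1H1C (chr6:26056471-26056590, minus strand) had a peak in all 3 lists. HIST1H1A (chr6:26017788-26017907, minus strand) had none, and its promoter holds both motifs, TATAAA beginning 31 bases and CCAAT 54 bases before the start. MTFR2, a gene for a mitochondrial protein (chr6:136250312-136250431, minus strand), is set beside them as the top-scored start-near peak of qPRO-seq 1M, at score 1.54, and holds CCAAT at 2 places and no TATAAA.

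Whole RefSeq promoter windows run from 250 bases before to 50 after the start, and motifs were sought on either strand. By name, 50 of the 55 histone genes matched a window. Separately, 55 windows of chromosome 6 carry a histone gene symbol of RefSeq, and TATAAA stood in 36 of them (65.5%). It stood in 15.0% of the 2083 windows of chromosome 6 and in 11.5% of all 34961. CCAAT stood in 47 of the 55 (85.5%), against 35.6% and 34.6%. Histone windows with a peak in all lists held TATAAA in 24 of 33 and those with a peak in none in 10 of 18, so the motif was common in both. Among other genes of chromosome 6 with a peak in all lists, TATAAA stood in 33 of 489 windows (6.75%), against 3.77% on the other chromosomes. A match describes the letters of the window only.

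The group of zinc-finger and SCAN-domain genes lies among and beside the histone genes, and most of its members encode DNA-binding proteins. It was picked by symbol and also counts NKAPL. A start peak stood at 12, 11 and 9 of 16 (75.0%, 68.8% and 56.3%), against 52.9%, 54.5% and 44.0% of all coding genes. The top of these in PRO-seq 1M was at ZSCAN12, at percentile 99.5, 99.7 and 94.6 in the 3 lists, and ZSCAN16, ZSCAN23, NKAPL and ZNF311 had none. ZNF311 lies in the stretch without peaks. Butyrophilins, immune surface proteins encoded in and near the same region, had a start peak at 2, 3 and 1 of 7 genes (28.6%, 42.9% and 14.3%), below the same shares of all coding genes. BTNL2, which had none, lies in the stretch without peaks. The peak at BTN3A1 was in qPRO-seq 1M alone, at percentile 87.2.

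Over the whole chromosome, the window's bins included, those with a positive excess numbered 89, 107 and 71, and 60 had one in all 3 lists. To bring the start-near share of chromosome 6 to that of the other chromosomes, 29, 41 and 19 bins had to be left out in falling order of their excess. The top 10 bins of each list together held 66.2%, 51.5% and 82.3% of the net excess. In the 167 bins that share no base with the window, the net excess was 119.4, 215.8 and 59.7 peaks. There 86, 103 and 68 bins had a positive excess, the largest of them 10.3, 13.2 and 7.59, and the top 10 held 57.3%, 45.4% and 79.5% of that net excess. Some bins went the other way: the bin from 41 to 42 Mb, with starts of the transcription factor TFEB and the cell-cycle gene CCND3, had 20, 25 and 8 peaks with 18, 19 and 7 start-near.

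**Figure D4:**
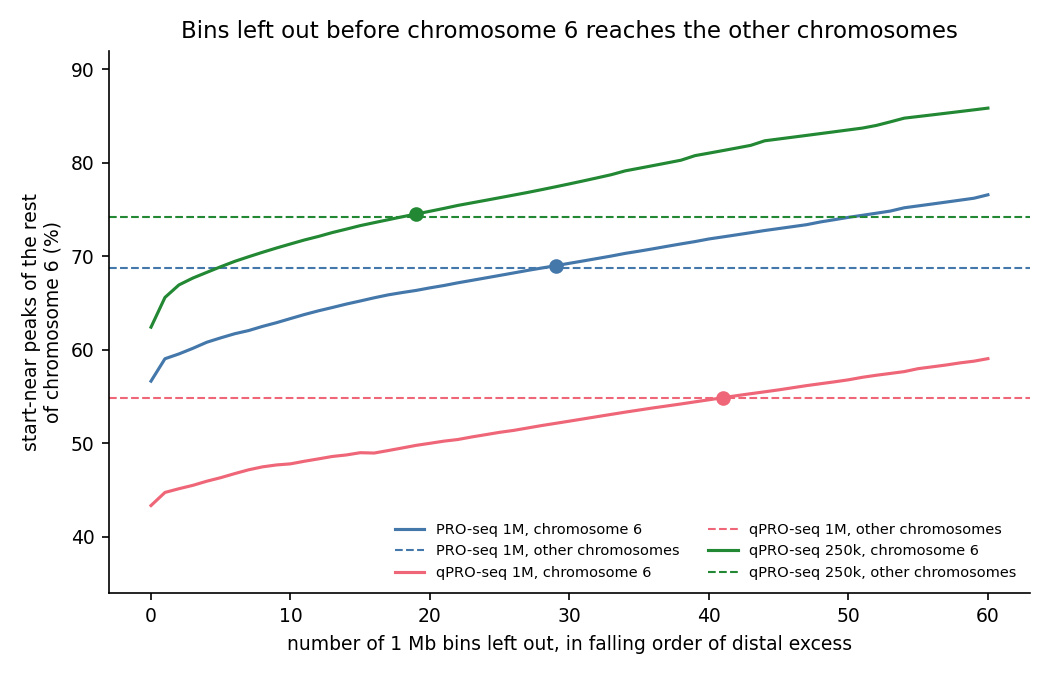
Start-near share of the rest of chromosome 6 (percent, vertical axis, not starting at 0) after leaving out 1 Mb bins in falling order of their distal excess (horizontal axis, number of bins), 1 solid line per list; dashed lines are the other 22 chromosomes of the same list. The first bin gives the largest step, and the lines meet the dashed level after 29, 41 and 19 bins (circles).

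Leaving out bins in the order of the excess was bound to raise the share. The number of bins needed describes how widely the surplus was spread, and it is no test.

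Bins that ranked among the top 10 in all 3 lists numbered 6, and they began at 3, 6, 15, 27, 37 and 157 Mb. The 5 besides the tRNA bin had no tRNA gene near any distal peak. Leaving out all 6 gave start-near shares of 61.4%, 46.5% and 68.1%. With the window left out as well, they were 61.7% (58.9 to 64.6), 46.1% (43.8 to 48.4) and 69.9% (66.5 to 73.1), still below the 68.8%, 54.9% and 74.3% of the other chromosomes. The genes named for these bins are the nearest coding genes of their distal peaks, and PXDC1, TUBB2A, FGD2, ZDHHC14 and ADGB were chosen after their values were seen. Nearness does not show that an element acts on a gene.

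In the bin from 6 to 7 Mb, 14 of 15, 20 of 21 and 7 of 7 peaks were distal. LY86, an immune-cell gene, was the nearest coding gene of 12, 16 and 7 of them. They clustered: the densest 100 kb, from 6.6 Mb, held 7, 9 and 5 peaks. Its top distal peak in qPRO-seq 1M (chr6:6712481-6713120, percentile 99.1) lay 57.5 kb from LY86, inside the non-coding gene AL031123.1.

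In the bin from 37 to 38 Mb, 20 of 31, 34 of 48 and 12 of 22 peaks were distal. PIM1, a serine/threonine kinase gene active in blood cells, was the nearest coding gene of 8, 14 and 7 of them, and FGD2 of 7, 8 and 2. The top distal peak (chr6:37109651-37110710 in qPRO-seq 1M, percentile 97.7) lay 59.5 kb from PIM1, and in qPRO-seq 250k its counterpart (chr6:37109631-37110490) was the top-scored distal peak of the chromosome. PIM1 itself had a start peak in all lists, at percentile 82.3, 83.8 and 78.5.

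In the bin from 15 to 16 Mb, 13 of 23, 34 of 46 and 13 of 21 peaks were distal. JARID2, a subunit of the Polycomb repressive complex, was the nearest coding gene of 7, 18 and 6, and DTNBP1 of 3, 11 and 5. They lay far from coding genes, at a median of 167, 153 and 139 kb from the nearest coding gene. Its excess differed most between the 1M lists of these bins, at 5.82 in PRO-seq 1M and 13.2 in qPRO-seq 1M.

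The next bin, from 16 to 17 Mb, was among the top 10 of qPRO-seq 1M, where 25 of 29 peaks were distal. GMPR, a guanosine monophosphate reductase gene that erythroid cells express, was the nearest coding gene of 13 of these. A peak in its intron (chr6:16267321-16268230) was at percentile 98.8 in qPRO-seq 1M, and its counterpart in qPRO-seq 250k (chr6:16267411-16268170) was the second distal peak of the chromosome by score. The start peak of GMPR was at percentile 99.5, 88.6 and 90.01.

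In the bin from 157 to 158 Mb, 17 of 29, 31 of 43 and 9 of 18 peaks were distal, and most of those lay within genes. ZDHHC14 was nearest to 6, 8 and 2, ARID1B, a subunit of the SWI/SNF chromatin remodelling complex, to 5, 9 and 3, and SNX9, an endocytosis gene, to 4, 10 and 3. The bin from 3 to 4 Mb had 16 of 28, 27 of 44 and 9 of 17 distal, nearest to PXDC1 for 4, 7 and 3 and to TUBB2A for 4, 6 and 3. Its top distal peak (chr6:3209121-3209780, percentile 99.8 in qPRO-seq 1M) lay 14.5 kb from the tubulin gene TUBB2B. A cluster of 6, 7 and 4 distal peaks in the 100 kb from 146.8 Mb lay nearest to ADGB.

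Other top-scored distal peaks lay outside the bins described above. In PRO-seq 1M these were a peak in RREB1 (chr6:7140701-7141600, percentile 99.5), a gene for a zinc-finger transcription factor, and one 55.6 kb from ARID1B (chr6:156719371-156720430, percentile 99.5). In qPRO-seq 1M the top distal peak lay 8076 bp from CD83 (chr6:14108591-14109180, percentile 99.9), and another lay 60.2 kb from KCNQ5 (chr6:72560671-72561550, percentile 99.8). All of these were overlapped by a peak in both other lists. By contrast, the top peak found in 1 list alone was at percentile 67.4 in PRO-seq 1M, in BICRAL (chr6:42782831-42783240), and at 54.0 in qPRO-seq 250k, 58.8 kb from MANEA (chr6:95518421-95518720). In qPRO-seq 1M it reached percentile 97.7, in CRISP2 (chr6:49693681-49694260).

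By place, intergenic peaks made up 56.8% (52.9 to 60.6), 51.3% (48.6 to 53.9) and 55.5% (50.4 to 60.4) of the distal peaks of chromosome 6, against 45.7%, 43.6% and 46.7% of those on the other chromosomes. Without the window the shares were 49.5% (45.2 to 53.9), 45.6% (42.8 to 48.6) and 43.1% (37.3 to 49.1). The interval of each list then covered the value of the other chromosomes, and in qPRO-seq 250k the share was the lower one. Intronic peaks made up 38.3%, 43.3% and 38.9% of the distal peaks, against 44.1%, 47.1% and 42.6%, and without the window 44.8%, 48.4% and 50.2%. Exonic ones were 4.93%, 5.46% and 5.60%, against 10.1%, 9.33% and 10.7%, and without the window 5.74%, 5.98% and 6.69%. Chromosome 6 peaks also lay in bins with fewer genes: the median peak's bin had 22, 21 and 23 gene starts, against 30, 28 and 30 elsewhere. With the other chromosomes weighted to the same gene density, the difference in start-near share was -9.67, -8.15 and -9.61 points.

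The stretch after the window was almost without peaks. PRO-seq 1M had none from 28616431 to 33570810, a span of 4.95 Mb that covers the MHC and holds 178 protein-coding genes and 35 tRNA genes. By coding genes it was the largest peak-free stretch over 1 Mb in that list, and the next held 41. In qPRO-seq 250k the same span had no peak, and the peak-free stretch ran from 28492131 to 33571190 with 181 coding genes. qPRO-seq 1M had 6 peaks in the span, 3 of them start-near, at MICA, PRRC2A and PHF1, and their percentiles ran from 1.83 to 61.3. Bins of the MHC held 23 to 64 coding genes, and the 163 bins of other chromosomes with at least 23 had a median of 31, 43 and 19 peaks, of which 74.4%, 65.8% and 78.6% were start-near. Of these 163, 3, 3 and 5 had no peak. The lack of start-near peaks in the MHC does not enter the bin excess, and its part in the chromosome's low start-near share was not tested.

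All gene groups of the stretch shared its lack of peaks. No start peak was found in any list at the 6 HLA class I genes, the 13 HLA class II genes or the 7 complement and TNF genes. Nor was one found at the 20 of 21 other MHC genes that lie inside, among them RPS18, which encodes a ribosomal protein, HSPA1A, which encodes a heat-shock protein, BRD2, BAG6 and DDX39B. The remaining gene of that list, HMGA1, lies beyond the stretch and had a start peak in all lists, at percentile 94.8, 92.2 and 80.9. Of 17 olfactory receptor genes, 14 inside and 3 outside, none had one. Inside the stretch 0, 3 and 0 of the 178 coding genes had a start peak, and a count of 0 here allows a share of up to 2.11% (Wilson 95%). On the rest of chromosome 6 it was 489, 497 and 430 of 866 (56.5%, 57.4% and 49.7%), above the 52.9%, 54.5% and 44.0% of all coding genes. The lists also name peaks on alternate scaffolds of chromosome 6, all of them on scaffolds that carry other versions of the MHC. These were 25, 66 and 16 peaks, or 56.8%, 45.5% and 57.1% of all peaks on alternate scaffolds. Their part in the empty stretch was not tested.

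**Figure D5:**
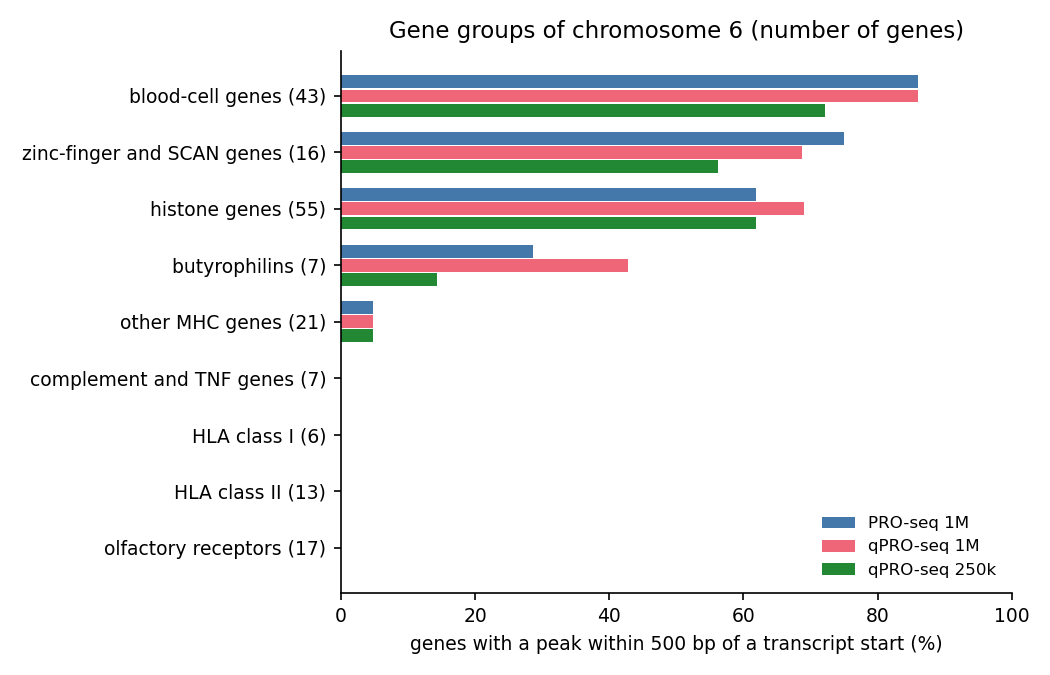
Share of the genes in each listed group of chromosome 6 (percent, horizontal axis from 0) with a dREG peak within 500 bp of a transcript start, 1 bar per list; the number of genes in each group is in brackets. The group labelled blood-cell genes, a list picked by hand with earlier results known, has long bars (86.0%, 86.0% and 72.1%). Histone genes (61.8%, 69.1% and 61.8%) have long bars too, and HLA, complement and TNF, and olfactory receptor genes have none.

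A list of 43 genes spread over the rest of the chromosome was picked by hand for roles in blood cells or growth. It also holds broadly used genes such as TBP and PSMB1. Start peaks stood at 37, 37 and 31 of the 43 (86.0%, 86.0% and 72.1%). The share was 56.5%, 57.4% and 49.7% of the coding genes outside the stretch without peaks. The list was drawn up with earlier results of these data known, so the difference describes the chosen genes and says nothing about lineage. The 31 genes with a start peak in all lists included MYB, a transcription factor gene of blood progenitors, at percentile 78.2, 92.1 and 13.8. These were not all the same peak. The MYB peak of qPRO-seq 250k (chr6:135181071-135181380) shared no base with the top MYB start peak of either 1M list. HBS1L, the neighbour of MYB and a ribosome rescue factor gene, stood at 97.2, 95.6 and 95.5. The region between HBS1L and MYB is known for variants that affect fetal haemoglobin. Between the annotated bounds of the 2 genes (chr6:135103057-135181314), 3, 4 and 2 peaks were called, of which 1, 3 and 1 were distal. These counts cover only part of the region, because the HBS1L start peak lay well before it (chr6:135054561-135055390 in PRO-seq 1M). They also include the MYB start peak (chr6:135180291-135181000 in PRO-seq 1M). RHAG, an ammonium transporter gene of red cells, had low-ranked start peaks at percentile 37.8, 27.96 and 19.4. SRSF3, a splicing factor gene, and SGK1, a kinase gene, ranked high, from 98.0 to 99.6 and from 98.0 to 99.6. SOX4, ID4, BMP6, IRF4 and ESR1 had no start peak in any list.

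Joined over the 3 lists, the peaks of chromosome 6 formed 2059 regions. Of these, 734 (35.6%) held a peak of every list, and 65.0% of them were start-near. A further 799 (38.8%) held a qPRO-seq 1M peak alone, and 18.5% of those were start-near. Peaks of PRO-seq 1M were overlapped by qPRO-seq 1M in 92.8% of cases and by qPRO-seq 250k in 64.4%, against 90.6% and 60.2% over all chromosomes. Peaks of qPRO-seq 1M were overlapped by PRO-seq 1M in 63.0% and by qPRO-seq 250k in 45.8%, against 63.3% and 44.1%. Peaks of qPRO-seq 250k were overlapped by PRO-seq 1M in 91.8% and by qPRO-seq 1M in 97.3%, against 91.2% and 96.6%. The chromosome as a whole was thus near its background, whereas its distal peaks were overlapped more often than other distal peaks: in PRO-seq 1M by qPRO-seq 250k 50.7% (46.8 to 54.6) against 42.5% (41.3 to 43.6), and in qPRO-seq 1M by PRO-seq 1M 47.6% (44.9 to 50.3) against 42.0% (41.2 to 42.7). Away from tRNA genes the shares were 45.6% and 44.2%.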

How the data were processed

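PRO-seq and qPRO-seq libraries of K562 cells were processed by the submitters, and 3 lists of dREG peaks, 1 per group of 2 replicates, were analysed. Per the submitters' processing notes, the tools included fastp 0.20.0, UMI-tools, Bowtie2 2.3.5.1 and deepTools 3.1.3, and the build was hg38 (GRCh38). The dREG version, its settings and the pooling of replicates are not given in the sources used here. Each peak has positions, a dREG score and a p-value as deposited by the authors; the score has no unit and was used to rank peaks within its list, and the p-value was at most 0.05 in every list. The lists give no counts, so depth is unknown, and list length and depth cannot be told apart.

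Peaks on chromosomes 1 to 22 and X were compared. A peak was start-near when its interval lay within 500 bp of a GENCODE 29 transcript start, and distal otherwise. tRNA genes and promoter sequences were from RefSeq (GRCh38.p14). Peaks were placed in 1 Mb bins by centre. Shares have Wilson 95% intervals and differences Newcombe 95% intervals, which cover counting error only. With 1 list per group there was no test between groups. Helper functions were tested on simulated data. Python 3.11.15, pandas 2.3.3 and numpy 2.4.6 were used.

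The chromosome, the gene lists and the comparisons were chosen with earlier results of these data known. Genes and peaks were named by rule: the 3 top-scored start-near and distal peaks of each list, the top peak found in 1 list alone, the top distal peak of the 10 bins with the largest excess in qPRO-seq 1M, and members of the listed gene groups. Promoter windows took the place of windows around peak centres, which need a genome sequence not used here. The alternatives were a 1000 bp window, protein-coding starts alone, tRNA genes counted as starts, peaks within 500 bp merged, p at most 0.01, lists of equal size, distance from the centre, score or gene-density adjustment, other bin sizes and stricter overlap.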

Additional observations from a re-analysis of the deposited data

Results flagged for a closer look

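Peaks were listed on alternate scaffolds of chromosome 6, sequences that entered none of the comparisons above. They numbered 25 in PRO-seq 1M, 66 in qPRO-seq 1M and 16 in qPRO-seq 250k. Every one lay on a scaffold that carries another version of the MHC, and 5, 7 and 4 such scaffolds had peaks.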

How the results depend on the processing

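No paired analysis was possible because each group has 1 peak list, and the files analysed hold no values per replicate; leaving out a replicate could not be run for the same reason. Of 102 alternative values, 58 stayed within the 95% interval of the value given above (counts within 1.5 times), 44 moved and 0 reversed. The start-near share of chromosome 6 depended on the definition. A window of 1000 bp gave 62.2%, 51.0% and 67.8%. It was 51.1%, 38.4% and 56.5% with protein-coding starts alone, and 51.3%, 37.8% and 57.5% by distance from the peak centre. With tRNA genes counted as starts it was 62.5%, 48.4% and 70.1%, and at p of at most 0.01 it was 59.7%, 45.8% and 66.4%. Merging peaks within 500 bp gave 52.0% and 37.0% in the 1M lists and left 1505 peaks in qPRO-seq 1M. Lists of equal size gave 66.2% in PRO-seq 1M and 56.9% in qPRO-seq 1M.

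The shortfall against the other chromosomes moved beyond its interval under tRNA genes as starts, to -6.94, -7.00 and -4.90 points, and, in qPRO-seq 1M, at equal gene density, to -8.15. Under the other alternatives it ran within its interval. Without the window, no alternative took the shortfall out of its interval. Without the window and with protein-coding starts alone, chromosome 21 at 39.0% lay below chromosome 6 at 40.0% in qPRO-seq 1M. With bins of 2 Mb, 18 and 11 bins had to be left out, in PRO-seq 1M and the 250k list.

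Overlap between lists fell under stricter rules. Each alternative has 6 values: PRO-seq 1M peaks overlapped by the list of qPRO-seq 1M and then of qPRO-seq 250k, those of qPRO-seq 1M by the lists of PRO-seq 1M and of qPRO-seq 250k, and those of qPRO-seq 250k by both 1M lists in the same order. They were 82.4%, 55.1%, 50.7%, 36.4%, 80.1% and 86.0% when at least 50% of both peaks had to be shared. They were 75.9%, 50.7%, 46.8%, 34.4%, 73.7% and 81.2% for centres within 100 bp. With lists of equal size they were 83.1%, 80.4%, 76.3%, 75.0%, 79.4% and 79.2%, a narrower range than with full lists. Depth is unknown, so peaks missing from a list may lie below its detection.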
